A study of Mus musculus with 6 samples.

Results

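The genes described are 10 classical targets of the transcription factor NF-kB that serve as readouts of islet inflammation, namely Nfkbia, Tnfaip3, Relb, Icam1, Ccl2, Cxcl1, Cxcl10, Il1b, Tnf and Nos2. They were chosen by symbol, and all 10 were found among the 55401 gene identifiers of the table. RNA of pancreatic islets was sequenced in 6 libraries from male C57BL/6 mice aged about 20 weeks. The 3 control libraries were Pdgfra fl/fl without Pdx1-Cre, and the 3 libraries labelled KO were Pdgfra fl/fl with Pdx1-Cre, so both groups carry floxed Pdgfra, which encodes receptor alpha of platelet-derived growth factor. Pdx1 drives Cre throughout the pancreatic lineage, and no library with Cre but without the floxed gene was analysed here, so an effect of Cre and one of the deletion cannot be told apart. The comparison asks what loss of Pdgfra in the pancreatic lineage does to islet transcripts.

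NF-kB is a family of dimers of Rela, Relb, Rel, Nfkb1 and Nfkb2 that are held inactive by IkB proteins. Signals from the receptors of interleukin-1 and tumour necrosis factor activate the IKK kinases, which mark IkB for destruction and let the dimers bind kappaB sites in DNA. In beta cells, interleukin-1 beta with interferon gamma is known to induce Nos2, Cxcl10 and Ccl2, and this response is widely used as a model of islet inflammation in diabetes.

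Promoter sequences show where such sites could lie in these genes. The RefSeq table of promoters (GRCm38.p6, 250 bases before to 50 after a gene's start) held 8 promoters of 7 of the 10 genes, and Relb, Ccl2 and Nos2 were not among them. On both strands, the kappaB consensus matched 4 of these 8 promoters and 4.51% of all 32851 promoters in the table. The looser motif GGGNNNNNCC, which contains every match of the consensus, was found in 7 of the 8 and in 50.8% of all. A match describes the letters only, and no measurement of binding was made. The promoters of the most abundant of the 10 genes and of the tested one that varied most between libraries are shown whole, with consensus matches in capitals.
Nfkbia, chr12:55492598-55492897, minus strand: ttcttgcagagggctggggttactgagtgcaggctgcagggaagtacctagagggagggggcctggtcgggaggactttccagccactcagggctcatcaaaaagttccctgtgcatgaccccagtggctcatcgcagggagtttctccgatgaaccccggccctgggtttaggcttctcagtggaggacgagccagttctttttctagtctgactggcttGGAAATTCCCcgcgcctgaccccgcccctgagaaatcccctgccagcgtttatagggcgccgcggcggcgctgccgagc
Cxcl10, chr5:92348840-92349139, minus strand: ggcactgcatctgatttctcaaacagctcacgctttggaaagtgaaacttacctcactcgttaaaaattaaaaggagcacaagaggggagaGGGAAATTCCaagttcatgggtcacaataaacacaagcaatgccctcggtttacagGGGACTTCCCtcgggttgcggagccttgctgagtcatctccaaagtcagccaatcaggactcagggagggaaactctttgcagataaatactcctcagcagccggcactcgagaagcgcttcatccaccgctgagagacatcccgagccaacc

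Windows of 30 bases around the matches in the other genes, each again with the match in capitals, allow the sites to be compared with those of Nfkbia and Cxcl10.
Tnfaip3, match at chr10:19015526-19015535: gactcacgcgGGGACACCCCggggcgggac
Tnfaip3, match at chr10:19015413-19015422: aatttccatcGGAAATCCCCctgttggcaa
Cxcl1, match at chr5:90891174-90891183: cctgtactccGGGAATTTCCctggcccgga
The Nfkbia match (chr12:55492667-55492676) begins 29 bases before the start of the gene, and the Cxcl10 matches begin 159 and 103 bases before it. The Cxcl1 match begins 71 bases before the start and is matched again on the other strand, shifted by a single base.

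The libraries held 15026094 to 25299689 counts. Pdgfra had 42, 88 and 116 counts in the controls and 93, 25 and 125 in the KO libraries. The edgeR estimate for it was a log2 fold change of -0.26 with an adjusted p of 0.869, and since reads over all exons are summed, Pdgfra gave no check of the labels. KO 2, with the fewest Pdgfra counts, also had the lowest sum of the fibroblast markers. The part of these cells in the Pdgfra counts was not tested. The labels name beta cells, and all 10 beta-cell markers on the list were detected, with a summed level of 96225 to 147908 CPM (counts scaled to library size and TMM factors). The 14 acinar markers summed to 149362 to 442007 CPM, so the preparations held much exocrine RNA. Control 1 had the highest acinar sum and the lowest beta-cell sum. It was also the lowest library for Nfkbia, Il1b and Cxcl10 and the highest for Relb. The part of the cell mixture in these values was not tested. A ribosomal RNA locus took 3.32% to 4.52% of counts in controls and 5.36%, 12.6% and 18.5% in KO 1, 2 and 3. In bulk samples, fewer cells of a type and less RNA per cell cannot be told apart.

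Of the 10 genes, 6 passed a filter on low counts and were tested, and 0 of the 6 differed between the libraries labelled KO and the controls at an edgeR adjusted p under 0.05. Over all 14212 genes tested the share was 0.0704%. At an unadjusted p under 0.05 there were also 0 of 6, against 7.37% of all genes, and DESeq2 and limma-voom called 0 as well. The groups overlapped in all 6 genes, whereas they did not overlap in 13.9% of all genes (KO higher in 7.94% and lower in 5.95%). In the 6, 3 log2 fold changes were positive and 3 negative, with a median of 0.05 against -0.01 over all genes tested. The other 4 genes, Ccl2, Cxcl1, Tnf and Nos2, had at most 6 counts in any library.

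**Figure D1:**
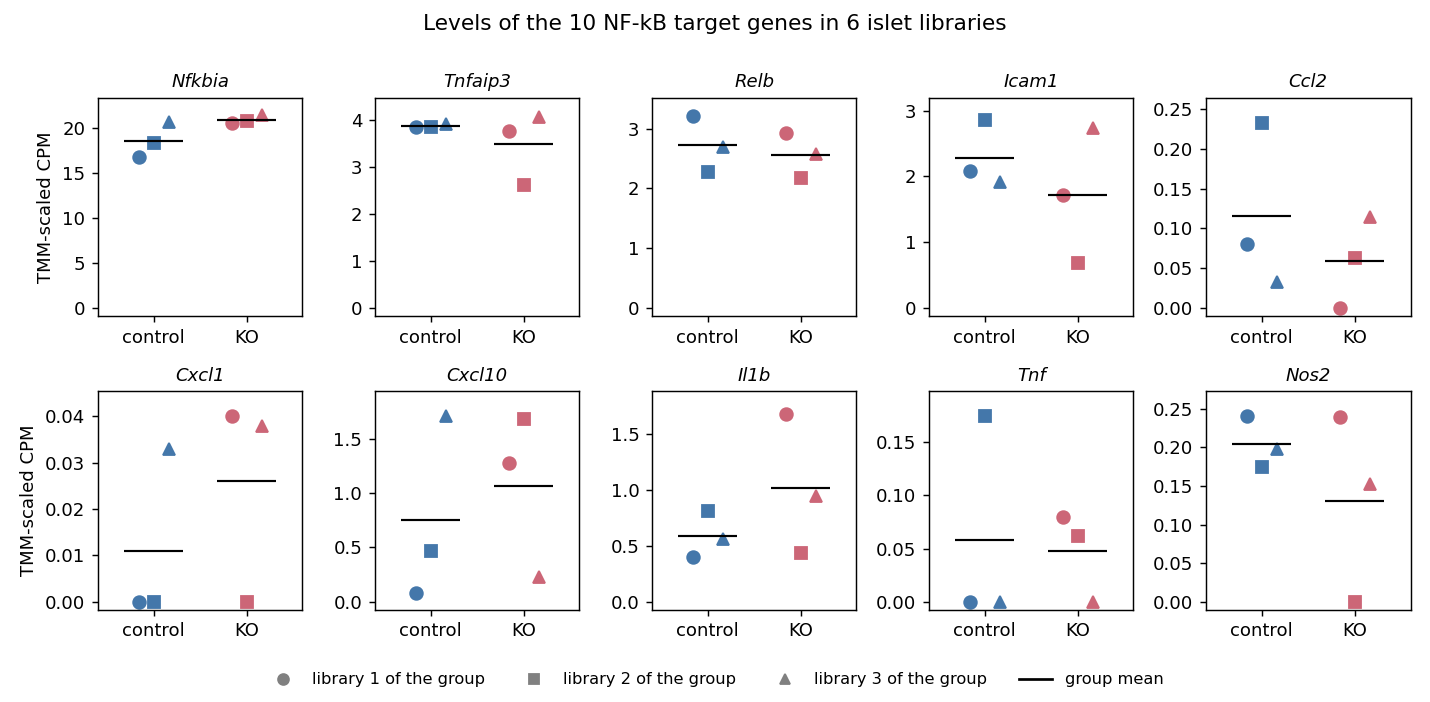
Level of each of the 10 NF-kB target genes in each library (vertical axes from 0, TMM-scaled CPM, a separate scale per gene), with symbols for library number and a line for the group mean. Nfkbia lay between 16.8 and 21.4 CPM, while Ccl2, Cxcl1, Tnf and Nos2 stayed at or below 0.24 CPM in every library.

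Compared per length, Nfkbia was by far the most abundant, at 12.3 ± 1.1 CPM per kilobase of exon (SD, n = 6 libraries), and its lowest library lay above the highest library of every other gene. Relb followed at 0.681 ± 0.100, Tnfaip3 at 0.509 ± 0.073, Icam1 at 0.458 ± 0.180, Il1b at 0.423 ± 0.251 and Cxcl10 at 0.403 ± 0.328 CPM per kilobase. Relb lay above Tnfaip3 in all 6 libraries. Tnfaip3 lay above Icam1, Icam1 above Il1b, and Il1b above Cxcl10 in 4 of 6 libraries each, and their ranges overlapped, so these ranks did not differ beyond the spread of the libraries. Ccl2, Nos2, Tnf and Cxcl1 came last, at 0.0765, 0.0377, 0.0322 and 0.00986 CPM per kilobase, with ranges that reached 0.

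The feedback inhibitors and Relb varied less between libraries than the other tested genes. Nfkbia, which encodes the inhibitor IkB alpha and is switched on by NF-kB itself (ENSMUSG00000021025.8, chromosome 12, 55489410 to 55492647, minus strand, GRCm38 build), was counted 210, 315 and 630 times in controls 1, 2 and 3 and 514, 334 and 564 in KO 1, 2 and 3. In CPM these were 16.8, 18.3 and 20.7 for the controls and 20.6, 20.8 and 21.4 for the KO libraries. The KO libraries were at the upper end, but control 3 lay within their range. The group means were 18.6 ± 2.0 and 20.9 ± 0.4 CPM (SD, n = 3 each). From edgeR came a log2 fold change of 0.16 with an SE of 0.10, a 95% interval of -0.07 to 0.39 and an adjusted p of 0.751. On a linear scale that interval runs from 0.954-fold to 1.31-fold, the narrowest of the 6 genes tested. Without control 3 the log2 fold change was 0.25 with an edgeR adjusted p of 0.573 and an unadjusted p of 0.0486.

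Tnfaip3 encodes A20, a ubiquitin-editing enzyme that shuts down the signal upstream of IKK (chromosome 10, 19000910 to 19015657, minus strand). It was found at 3.85, 3.84 and 3.92 CPM in controls 1, 2 and 3 and at 3.76, 2.62 and 4.07 CPM in KO 1, 2 and 3. The controls were nearly equal, and KO 2 was the 1 library that stood low. The edgeR estimate was a log2 fold change of -0.14 with an SE of 0.20, a 95% interval of -0.59 to 0.31 and an adjusted p of 0.888, and it moved to 0.02 without KO 2.

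Relb, the subunit of the non-canonical pathway and itself a target (chromosome 7, 19606217 to 19629438, minus strand), was likewise even. Its level was 3.21, 2.27 and 2.70 CPM in controls 1, 2 and 3 and 2.92, 2.18 and 2.58 in KO 1, 2 and 3. The lowest and the highest libraries of both groups lay close together. With edgeR, Relb had a log2 fold change of -0.07, an SE of 0.22, a 95% interval of -0.56 to 0.42 and an adjusted p of 0.952.

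Icam1, an adhesion molecule of endothelial and other cells that lets leukocytes attach (chromosome 9, 21015985 to 21028817, plus strand), varied more. It had 2.08, 2.85 and 1.91 CPM in controls 1, 2 and 3 and 1.72, 0.686 and 2.74 CPM in KO 1, 2 and 3. KO 2 was lowest, at 11 counts, and the other KO libraries lay near or within the control range. The edgeR log2 fold change of -0.35 had an SE of 0.40, a 95% interval of -1.26 to 0.56 and an adjusted p of 0.855, and became -0.02 without KO 2. In the same library the 10 endothelial markers summed to 216 CPM, against 331 to 437 CPM in the other 5, and the 10 fibroblast markers to 52.8 CPM, against 166 to 331 CPM. The beta-cell markers summed highest in that library. Tnfaip3 was lowest there too, and Relb narrowly so (2.18 CPM, against 2.27 CPM in control 2). The part of these cell types in the values of Icam1, Tnfaip3 and Relb was not tested.

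Il1b had the largest fold change of the tested genes, without passing the test. It encodes interleukin-1 beta, made mainly by myeloid cells (chromosome 2, 129364570 to 129371139, minus strand), and was counted 5, 14 and 17 times in controls 1, 2 and 3 and 42, 7 and 25 in KO 1, 2 and 3. Its level was thus 0.401, 0.815 and 0.559 CPM in controls and 1.68, 0.436 and 0.950 CPM in KO. KO 1 and KO 3 lay above all controls and KO 2 lay among them. Its log2 fold change in edgeR was 0.82, with an SE of 0.48, a 95% interval of -0.26 to 1.90 and an adjusted p of 0.744. Without KO 1 it was 0.27 and without KO 2 it was 1.12. Across all alternatives the adjusted p ran from 0.501 to 1, and the unadjusted edgeR p was under 0.05 in 4 of them. These were the fit without KO 2 (0.0216), that without the filter on low counts (0.0435), that with the ribosomal RNA locus as a covariate (0.0156, log2 fold change 1.78) and KO 1 alone against the controls (0.0113, log2 fold change 1.48). The last, added after seeing the data, keeps the KO library with the most Il1b, has no spread of its own in the KO arm and bears little weight. The fit without the filter took less account of each gene's own spread than the main fit. The ribosomal RNA share was higher in every KO library than in every control, so that covariate is not cleanly separated from genotype.

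The 14 macrophage markers were all detected and summed to 109 to 131 CPM in controls and 96.1 to 118 CPM in KO, so the ranges overlapped. Of the 13 tested, 11 had negative and 2 positive log2 fold changes, or 15.4% positive, against 47.8% of all genes tested. Negative values also prevailed among the acinar (14 of 14), fibroblast (10 of 10), duct (8 of 10) and endothelial markers (7 of 10). Of the beta-cell markers, 3 of 10 were negative. Among the 13 macrophage markers, an unadjusted edgeR p under 0.05 was found in 15.4%, against 7.37% of all genes. The 2 with an unadjusted p under 0.05 were Fcgr1, an immunoglobulin receptor of macrophages, at -1.13 (SE 0.33, edgeR adjusted p = 0.537), and Lyz2, lysozyme of myeloid cells, at -0.50 (SE 0.20, edgeR adjusted p = 0.648). KO 1, the library with the most Il1b, had a summed macrophage level of 118 CPM, within the control range. KO 2, the KO library with the least Il1b, had the lowest macrophage level of the 6, and the part of macrophages in the values of Il1b was not tested. Lymphocyte markers summed to only 5.13 to 8.06 CPM in the 6 libraries, and 2 of the 12 passed the filter.

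**Figure D2:**
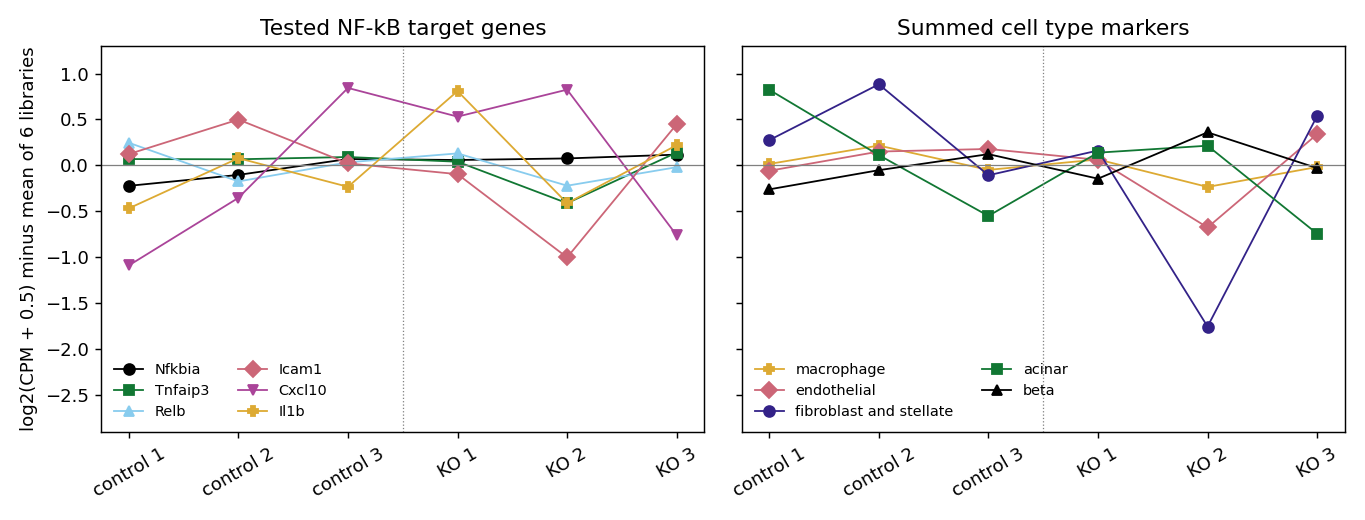
Left, the 6 tested NF-kB target genes, and right, summed markers of 5 cell types, in each library as log2(CPM + 0.5) minus the mean over the 6 libraries, with lines that only join the points of a gene or list. Icam1 and the endothelial, fibroblast and macrophage markers were all lowest in KO 2, whereas Nfkbia stayed within 0.23 of its mean.

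Of the 6 tested genes Cxcl10 differed most between libraries, with high and low values in each group. It encodes a chemokine that attracts T cells and is induced by interferon gamma together with NF-kB (chromosome 5, 92346638 to 92348889, minus strand). It was counted 1, 8 and 52 times in controls 1, 2 and 3 and 32, 27 and 6 times in KO 1, 2 and 3. In CPM these were 0.0802, 0.466 and 1.71 in controls and 1.28, 1.68 and 0.228 in KO. The highest library was 21.4-fold above the lowest, a ratio that rests on the single count of control 1. The edgeR log2 fold change of 0.20 had an SE of 0.79, a 95% interval of -1.57 to 1.96 and an adjusted p of 0.959. It turned negative when control 1, control 2, KO 1 or KO 2 was left out, and was 1.76 without control 3, 1.13 with the ribosomal RNA locus as a covariate and 0.42 with DESeq2.

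Cxcl9, another interferon-induced chemokine for T cells, was under the filter and also held high and low libraries in both groups, with 0, 7 and 19 counts in controls 1, 2 and 3 and 16, 6 and 0 in KO 1, 2 and 3. Ccl5, a T-cell chemokine, had 1, 3 and 16 counts in controls and 15, 4 and 9 in KO. Control 1 held at most 1 count of each of the 3 chemokines. Scaled to library size, control 3 was highest for Cxcl10, while KO 1 was slightly above it for Cxcl9 (0.640 against 0.625 CPM) and for Ccl5 (0.600 against 0.527 CPM). Exons of Cxcl10 overlap those of Art3 on the opposite strand, and the strand setting of the counting is not given in the sources used here. Art3 had 30, 45 and 63 counts in controls and 72, 28 and 45 in KO, a narrower range than that of Cxcl10. Exons of Icam1 and Il1b likewise overlap opposite-strand genes, Gm47079 and Il1bos, which held 7 and 0 counts over all libraries.

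**Figure D3:**
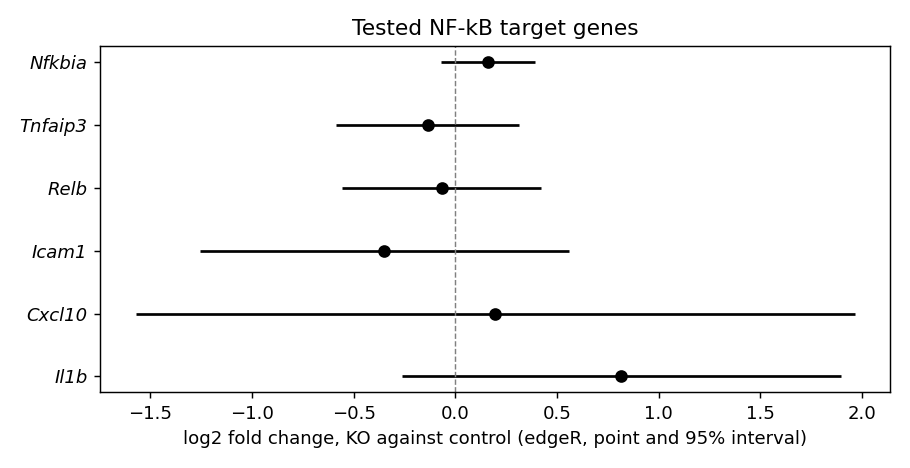
Log2 fold change (horizontal axis) of the 6 tested NF-kB target genes, KO against control, with points for the edgeR estimate and lines for the 95% interval. All 6 intervals hold 0, and they widen from Nfkbia (-0.07 to 0.39) to Cxcl10 (-1.57 to 1.96).

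The remaining genes were near the limit of detection. Ccl2, a chemokine for monocytes (chromosome 11, 82035571 to 82037453), was counted 1, 4 and 1 times in controls 1, 2 and 3 and 0, 1 and 3 times in KO 1, 2 and 3. Nos2, the inducible nitric oxide synthase (chromosome 11, 78920787 to 78960254), had 3, 3 and 6 counts in controls and 6, 0 and 4 in KO. Counts this low were found in both groups. Tnf, the tumour necrosis factor (chromosome 17, 35199381 to 35202007), had 0, 3 and 0 counts in controls and 2, 1 and 0 in KO. Cxcl1, a chemokine for neutrophils (chromosome 5, 90891241 to 90893115), had 0, 0 and 1 counts in controls and 1, 0 and 1 in KO. A count of 0 in a library allows up to 3 counts, or 0.0987 to 0.240 CPM depending on its depth.

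Summed over each group and scaled by library size, the KO to control ratio was 0.743 for Nos2 (95% exact interval 0.287 to 1.88, from 12 control and 10 KO counts) and 0.594 for Ccl2 (0.123 to 2.51, from 6 and 4). It was 0.892 for Tnf (0.119 to 6.66, from 3 and 3) and 1.78 for Cxcl1 (0.0928 to 105, from 1 and 2). These intervals cover counting error only, and all 4 hold a ratio of 1. At this depth a difference in Tnf or Cxcl1 of several fold was not detectable. For Ccl2 and Nos2 the intervals reached down to 0.123 and 0.287, so a severalfold decrease in them could also have gone unseen.

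The wider NF-kB pathway was described from 6 lists with 93 further genes, of which 67 were tested and 0 passed (edgeR adjusted p under 0.05). At an unadjusted p under 0.05 there were 5 of 67, or 7.46%, close to the 7.37% of all genes. The groups did not overlap in 9 of the 67, 5 higher and 4 lower in KO, or 13.4%, again close to the 13.9% of all genes. The median log2 fold change was -0.04, against -0.01 over all genes tested. There were 28 positive and 39 negative values, or 41.8% positive, against 47.8% of all genes. The directions given below for each list have the same 47.8% as their background.

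Levels of receptors and adaptors ranged widely. Il1r1, the interleukin-1 receptor, was the most abundant gene of its list, at 249, 319 and 297 CPM in controls 1, 2 and 3 and 332, 437 and 353 CPM in KO 1, 2 and 3. Every KO library lay above every control, and edgeR gave a log2 fold change of 0.38 with an SE of 0.15 and an adjusted p of 0.639. Tnfrsf1a, the main receptor of tumour necrosis factor, had 36.5, 31.0 and 31.8 CPM in controls and 29.7, 24.6 and 27.5 CPM in KO, every KO library below every control (log2 fold change -0.27, SE 0.11, edgeR adjusted p = 0.633). In that list 15 of 16 genes were tested, 5 with positive and 10 with negative values and 0 past the threshold.

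Among the IKK complex and the kinases above it, 14 of 14 genes were tested, 7 positive and 7 negative. Irak4, a kinase that acts directly below the interleukin-1 receptor, had 4.49, 4.48 and 4.44 CPM in controls 1, 2 and 3 and 3.08, 2.68 and 2.70 CPM in KO 1, 2 and 3. The groups were clearly apart, but with a log2 fold change of -0.66, an SE of 0.17 and an edgeR adjusted p of 0.440 it did not pass over all genes. Chuk, which encodes IKK alpha, had a value of -0.14 and Irak1, the most abundant of this list with means of 156 ± 19 and 144 ± 8.9 CPM in the control and KO groups (SD, n = 3 each), a value of -0.12.

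The subunits and IkB proteins had 4 positive and 4 negative values among 8 tested of 9. Nfkb1, the precursor of p50, had group means of 30.3 ± 0.6 CPM for controls and 34.0 ± 4.3 CPM for KO (SD, n = 3 each, log2 fold change 0.16), and Nfkb2, the precursor of p52, had a log2 fold change of -0.33. Of the negative regulators, 14 of 16 were tested, 6 positive and 8 negative. Otud7b, a deubiquitinase that restrains the non-canonical pathway, had 33.1, 34.4 and 34.8 CPM in controls and 39.1, 43.1 and 49.5 CPM in KO. Its groups did not overlap, and its log2 fold change was 0.36 (SE 0.10, edgeR adjusted p = 0.517). N4bp1, an inhibitor of NF-kB signalling, had a value of 0.21, and Tax1bp1, a partner of A20 and the most abundant of this list, a value of -0.0044 at 106 ± 2.3 CPM in controls (SD, n = 3).

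**Figure D4:**
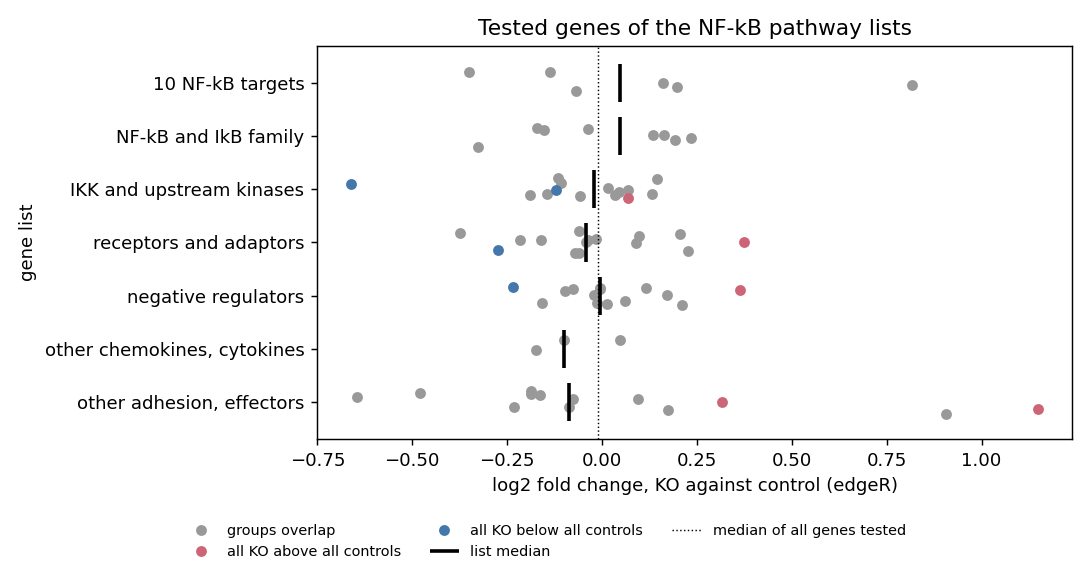
Log2 fold change (horizontal axis) of each tested gene in 7 lists (vertical axis), coloured by whether the KO and control libraries overlap, with a bar for each list's median and a dotted line for the median of all genes tested (-0.01). List medians lay between -0.10 and 0.05, and Gadd45b is the point farthest to the right at 1.15.

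Other NF-kB targets of the chemokine and cytokine class were scarce: 3 of 20 were tested, Csf1, Cx3cl1 and Cxcl16. Csf1, the macrophage growth factor, had a log2 fold change of -0.17, and Cx3cl1, a membrane-bound chemokine, a value of -0.10. Of the 17 under the filter, 4 had no count in any library, namely Cxcl3, Ccl20, Il6 and Csf2, and the highest count of any was 19, that of Cxcl9 in control 3.

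Of the other adhesion and effector targets, 13 of 18 were tested, 5 positive and 8 negative, and 0 passed. Gadd45b, a stress-induced protein that is a target of NF-kB, had 4.49, 4.48 and 6.25 CPM in controls 1, 2 and 3 and 9.33, 13.3 and 11.9 CPM in KO 1, 2 and 3. Its lowest KO library lay above its highest control, and edgeR gave a log2 fold change of 1.15 with an SE of 0.19, a 95% interval of 0.73 to 1.57 and an adjusted p of 0.100. It was the 1 pathway gene that passed in any alternative. These were DESeq2 (adjusted p = 1.73e-04), the replicate block in edgeR (adjusted p = 0.0286) and edgeR without the filter on low counts (adjusted p = 5.04e-09). The last took less account of each gene's own spread between libraries than the main fit. Over all genes these fits called 48, 36 and 300, against 10 in the main fit. Gadd45b did not pass with RLE normalization, limma-voom, the ribosomal RNA covariate or any single library left out. Ptges, a prostaglandin synthase, had a value of 0.32 without overlap of the groups (edgeR adjusted p = 0.741). Sod2, the mitochondrial superoxide dismutase and the most abundant of this list, had a value of -0.08.

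The genes most like the mean profile of the 6 tested genes, each standardized over the 6 libraries, included Klhl13 and Arhgef3, with Pearson r of 0.988 and 0.977 over 6 libraries. This is a description only, since all genes of a library share its depth and cell mixture, and 18 of 12052 candidate genes had r above 0.95.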

How the data were processed

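The authors deposited raw read counts per gene for 6 libraries, with gene positions and exonic lengths. The submitters' processing notes list STAR (2.7.9), featureCounts (2.0.0), GRCm38.p6 and mm10. For the annotation release, strand setting and multi-mapping reads, the choices are not given in the sources used. Libraries were grouped by title. Since no label states that each library came from its own mouse, the p-values may reflect technical spread only. Per the file headers, the 3 KO columns carry a suffix absent from the labels and from the control columns. Its meaning is not given, and whatever it marks cannot be told apart from genotype.

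Of 55401 identifiers, 55141 received a symbol from a gene name table, 54349 of them with their version, and these 54349 have the same positions in GENCODE vM21. Counts were tested with edgeR 4.0.16 (R 4.3.3, glmQLFit and glmQLFTest, two-sided) with TMM factors, genotype as the only term, filterByExpr (minimum count 10, minimum total 15) and Benjamini-Hochberg adjustment over 14212 genes at 0.05. The common biological coefficient of variation was 0.14. The script was tested on counts simulated for this comparison (14013 genes tested, 199 changed), recovering 72% of genes changed by a log2 of 1 and 97% at 2, with 10.2% of calls false. The changed genes were drawn from those with a mean above 1 CPM. Il1b and Cxcl10, at means of 0.807 and 0.908 CPM, lay below that limit, so the recovery does not cover them. With 199 genes changed in the simulation, against 10 called in the real data, its adjusted threshold was also easier to pass. The recovery is therefore not that of a single gene in the real data. Gadd45b, at a log2 fold change of 1.15, had an edgeR adjusted p of 0.100. Genes under the filter were compared by summed counts with exact (Clopper-Pearson) 95% intervals.

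Alternatives were RLE normalization, no filter, a replicate block, omission of each library, DESeq2 1.42.0, limma-voom (limma 3.58.1) and log2 CPM of a ribosomal RNA locus (CT010467.1) as a covariate. KO 1 alone against the controls was added after seeing the data. The 10 genes and all lists were chosen with earlier results of these data known. Named were the 10 genes and, per pathway list, the 2 with the smallest p and the most abundant, plus the 3 genes of most similar profile, of which 1 is not reported here. Cxcl9, Ccl5, Cxcl16, the chemokine and cytokine genes without a count, the opposite-strand genes, Fcgr1 and Lyz2 were named after their values were seen. No pair of libraries agreed within sampling noise (chi-square per degree of freedom at least 14.4). Python 3.11.15, pandas 2.3.3, SciPy 1.17.1 and matplotlib 3.10.9 were used.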

Additional observations from a re-analysis of the deposited data

How the results depend on the processing

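None of the 10 genes passed in any of the 13 alternatives run, of which 1, that without the filter on low counts, tested all 10 and the others 6. Over all genes the 10 calls became 300 without the filter on low counts, 36 with the replicate block, 48 with DESeq2, 6 with limma-voom and 0 with the ribosomal RNA covariate (214 genes at an unadjusted p under 0.05 in edgeR), and ran from 2 to 6 with 1 library left out. With KO 1 alone, an arm of 1 library whose spread is borrowed from the controls, there were 0 (448 genes at an unadjusted p under 0.05 in edgeR). Calls among the pathway genes went from 0 to 1, Gadd45b, without the filter, with the replicate block and with DESeq2. Without the filter, the SE fell from 0.79 to 0.37 for Cxcl10 and rose from 0.10 to 0.13 for Nfkbia. That fit thus took less account of each gene's own spread, and its p-values and 300 calls bear less weight. Relb turned from -0.07 to 0.0086 with the ribosomal RNA covariate and to 0.11 with KO 1 alone. The cause was not tested. The ribosomal RNA share was higher in every KO library than in every control, so that covariate is not cleanly separated from genotype. With 1 library left out, log2 fold changes ran from 0.10 to 0.25 for Nfkbia, -0.26 to 0.0158 for Tnfaip3, -0.18 to 0.0432 for Relb, -0.84 to -0.02 for Icam1, -0.26 to 1.76 for Cxcl10 and 0.27 to 1.12 for Il1b. Under the block those of Nfkbia and Il1b were 0.17 and 0.68. Between libraries of the same number, deviations from the group means had correlations of 0.24, -0.23 and 0.19, so the numbers are not shown to pair the samples. Depth limits Ccl2, Cxcl1, Tnf and Nos2, whose ratios ran from 0.244 to 1.27, 1.27 to 2.34, 0.440 to 1.46 and 0.473 to 0.975 with 1 library left out. This leaves out Cxcl1 without control 3 and Tnf without control 2, where the controls hold 0 counts and the ratio has no upper limit. The omissions for these 4 genes, and KO 1 alone, were chosen after seeing the data.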
